A study of Mus musculus with 12 samples.

Results

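The unfolded protein and endoplasmic reticulum (ER) stress genes described here are 34 genes of 23790 in the deposited tables. They were chosen by symbol as ER chaperone, ER-associated degradation (ERAD) and integrated stress response genes, and all 34 were found in both tables. They fall into 23 genes of the XBP1/ATF6 branch, 4 stress sensors and 7 genes of the ATF4 branch. Polyadenylated RNA was sequenced from purified mouse colonocytes, the lining cells of the large intestine, taken from mice with (WT) or without (KO) the locus that encodes both C15ORF48 and miR-147, to ask how that locus controls gut inflammation. There were 12 libraries in 4 groups of 3. WT untreated and KO untreated mice carry the treatment label none. WT DSS and KO DSS mice received 3% dextran sodium sulfate (DSS), which damages the epithelium and provokes colitis, for 3 days. The treatment text names DSS for the untreated libraries as well, and the treatment field, the titles and the design text were followed. The sources used here do not give the strain, the age, how the locus was deleted or whether each library stands for its own mouse, so p-values measure only the spread between these libraries.

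Proteins that enter the ER fold with the help of chaperones and disulfide isomerases, and misfolded ones are pulled back to the cytosol and degraded, which is ERAD. When unfolded protein builds up, the sensors IRE1 (Ern1, and Ern2 in mucus-making epithelia), ATF6 and PERK (Eif2ak3) respond. IRE1 splices the Xbp1 messenger, ATF6 is cut to a transcription factor, and both raise chaperone and ERAD genes. PERK phosphorylates eIF2α, which slows translation and raises the factor ATF4, and other kinases feed the same step as the integrated stress response. In the colon, goblet cells, which fold and secrete large amounts of mucin, depend on this system.

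Promoter sequences are shown first because motifs of the known factors do not depend on the expression values. RefSeq promoter windows of 300 bases on GRCm38.p6, from 250 bases before to 50 after each start site, were found for 29 of the 34 members. They were searched on both strands for the ER stress element ERSE (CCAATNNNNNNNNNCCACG), ERSE-II (ATTGGNCCACG), the XBP1 element UPRE (TGACGTGG) and the C/EBP-ATF element CARE (TGATGNAA). ERSE was found in 9 of 20 XBP1/ATF6 members with a window, in 0 of 2 sensors and in 0 of 7 ATF4 genes. Of all 27025 genes searched, 0.137% held it. The members were chosen as genes of this response, so the motif counts describe them and test nothing. The matches are written 5′ to 3′ on the gene's strand, with the motif in capitals and 5 flanking bases on each side. A motif on the opposite strand reads CGTGG first.
Hspa5 (chr2:34772020-34772048, plus strand): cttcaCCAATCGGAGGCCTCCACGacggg
Hsp90b1 (chr10:86705633-86705661, minus strand): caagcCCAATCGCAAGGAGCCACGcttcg
Hsp90b1 (chr10:86705528-86705556, minus strand): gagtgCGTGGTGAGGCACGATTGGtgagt
Calr (chr8:84847070-84847098, minus strand): caacgCGTGGTCGACCCTCATTGGcccat
Canx (chr11:50325795-50325823, minus strand): attgaCCAATCACCACGCTCCACGaagaa
Pdia6 (chr12:17266486-17266514, plus strand): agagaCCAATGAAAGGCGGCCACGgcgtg
Dnajc3 (chr14:118937822-118937850, plus strand): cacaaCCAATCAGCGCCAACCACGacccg
Creld2 (chr15:88819515-88819543, plus strand): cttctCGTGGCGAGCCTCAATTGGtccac
Syvn1 (chr19:6046527-6046555, plus strand): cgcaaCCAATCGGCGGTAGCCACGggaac
Derl3 (chr10:75893237-75893265, plus strand): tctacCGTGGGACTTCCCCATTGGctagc

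ERSE-II was found in 2 members and in 0.0444% of all genes. Both members, Dnajb11 and Herpud1, belong to the XBP1/ATF6 branch, and the capitals again mark the motif.
Dnajb11 (chr16:22857847-22857867, plus strand): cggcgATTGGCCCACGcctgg
Herpud1 (chr8:94386372-94386392, plus strand): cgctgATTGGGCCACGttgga

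CARE was found in 4 members and in 4.51% of all genes. Among the 7 ATF4 branch genes, 3 held a match (Trib3, Asns and Chac1), and Herpud1 held 1 besides its ERSE-II. UPRE was found in 0 matched members and in 0.714% of all genes.
Herpud1 (chr8:94386312-94386329, plus strand): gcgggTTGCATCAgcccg
Trib3 (chr2:152344034-152344051, minus strand): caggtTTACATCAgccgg
Asns (chr6:7693220-7693237, minus strand): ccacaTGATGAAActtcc
Chac1 (chr2:119351044-119351061, plus strand): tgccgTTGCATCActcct

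The whole windows of Hspa5, which encodes the main ER chaperone BiP, and of Dnajb9, the member with a called difference below, are shown for comparison (chr2:34771840-34772139 on the plus strand and chr12:44210019-44210318 on the minus strand). Capitals in the Hspa5 window mark its ERSE. The Dnajb9 window held none of the 4 motifs as spelled here. It lies wholly within the gene as placed by GENCODE vM21 (chr12:44205559-44210326). Bases before that start were therefore not searched.
Hspa5: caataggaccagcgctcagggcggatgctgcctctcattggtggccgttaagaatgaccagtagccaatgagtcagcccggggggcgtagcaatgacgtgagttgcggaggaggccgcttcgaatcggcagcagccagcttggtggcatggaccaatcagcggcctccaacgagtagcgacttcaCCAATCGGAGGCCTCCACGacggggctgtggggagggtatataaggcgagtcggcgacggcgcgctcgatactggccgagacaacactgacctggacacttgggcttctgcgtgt
Dnajb9: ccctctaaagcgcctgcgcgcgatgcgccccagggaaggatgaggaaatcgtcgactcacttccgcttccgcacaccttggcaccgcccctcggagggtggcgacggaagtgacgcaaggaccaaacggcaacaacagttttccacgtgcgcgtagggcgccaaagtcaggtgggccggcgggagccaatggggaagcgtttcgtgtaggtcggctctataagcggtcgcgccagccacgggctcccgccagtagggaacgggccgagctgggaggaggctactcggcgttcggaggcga

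Depth ran from 20608073 to 26840859 reads in untreated and from 12622406 to 16708090 in DSS libraries. The mouse form of C15ORF48, AA467197, had a mean of 434.2 RPKM (reads scaled to gene length and depth) in WT untreated and 4.68 in KO untreated libraries. Under DSS the means were 429.5 in WT and 7.69 in KO, and no KO library exceeded 9.19. The epithelial marker Epcam lay between 1055 and 1444 RPKM in every library. Plasma cells, which express many of these members at high levels, left little trace: Mzb1 and Tnfrsf17 were at or near 0 and Jchain stayed at or below 0.252 RPKM. Sdc1, which epithelium also expresses, made up most of the plasma cell list with 77.5 to 120.2 RPKM. Of the 8 listed plasma cell genes only 6 had values, so the rest could not be looked at. Summed macrophage markers reached at most 40.4 RPKM, lymphocyte markers 33.6 and fibroblast markers 42.1 (WT untreated replicate 3), beside 6033 to 8125 for 6 epithelial markers. In bulk libraries fewer cells of a type and less RNA per cell cannot be told apart.

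Levels differed far more between members than between groups. Calr, the lectin chaperone calreticulin, was the most abundant with 343.6 to 592.1 RPKM, followed by Pdia3, a disulfide isomerase of glycoproteins, with 271.8 to 432.7. Hsp90b1 (GRP94) and Hspa5 ranged from 168.2 to 293.3 and from 149.7 to 311.7 RPKM. At the other end Derl3, Trib3 and Chac1 stayed under 1 RPKM in all or nearly all libraries, with 0 to 16, 1 to 9 and 5 to 31 reads, and were too low to be tested. The other 31 members were tested in each comparison.

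**Figure D1:**
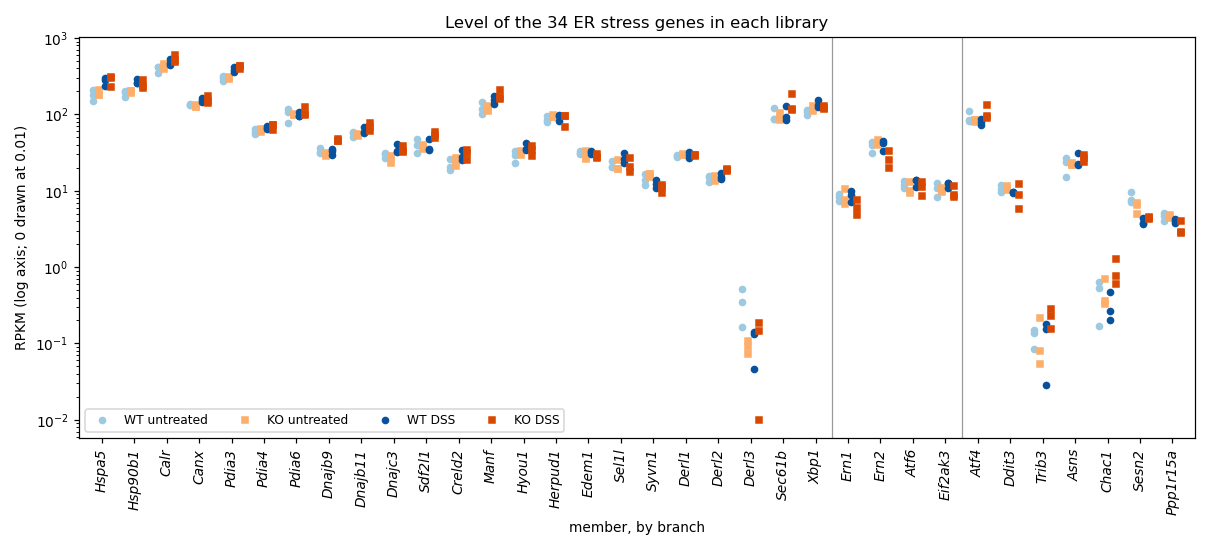
RPKM of the 34 members in each of the 12 libraries, on a log axis, with colour and shape marking the 4 groups (3 points each) and vertical lines separating the XBP1/ATF6 branch, the sensors and the ATF4 branch. The points of a gene lie close together compared with the distance between genes, from Calr (up to 592.1 RPKM) to Derl3, Trib3 and Chac1, which were too low to be tested.

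In untreated mice no member passed the test between the genotypes. With limma, 0 of 31 members passed an adjusted p of 0.05, where 2 of 11072 genes did (0.0181%). The median log2 fold change of KO against WT, on the log2(RPKM + 1) scale, was 0.01 over 22 XBP1/ATF6 members, −0.03 over the 4 sensors and −0.003 over 5 ATF4 members, beside 0.01 over all genes tested. At an unadjusted p under 0.05 there was 1 member, Sesn2, against 9.09% of all genes. In no member did every KO library lie above every WT library (8.32% of the genes tested did), and every KO library lay below in Sesn2 (7.68% of the genes tested did) and in the untested Derl3.

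Hspa5 had 149.7, 207.2 and 180.2 RPKM in WT and 206.4, 180.3 and 180.2 in KO libraries. The groups overlapped and the log2 fold change was 0.09 (SE 0.12, limma adjusted p = 0.831), with a 95% interval of the fold from 0.871 to 1.295. Xbp1, the transcription factor that IRE1 activates by splicing, had 97.9, 107.2 and 115.0 RPKM in WT and 116.2, 130.8 and 109.2 in KO. Its log2 fold change was 0.15 (SE 0.10, limma adjusted p = 0.631), and the table does not separate spliced from unspliced Xbp1. Dnajc3, a co-chaperone also known as P58IPK, had 26.9, 31.4 and 30.5 RPKM in WT and 26.3, 23.4 and 28.6 in KO (log2 fold change −0.17, SE 0.10, limma adjusted p = 0.606).

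Syvn1, the ERAD ubiquitin ligase HRD1, had 12.1, 13.8 and 16.5 RPKM in WT untreated and 15.0, 16.6 and 16.5 in KO untreated libraries (log2 fold change 0.18, SE 0.11, limma adjusted p = 0.641). Sesn2, a stress-induced regulator of mTORC1 and a target of ATF4, had 9.64, 7.20 and 7.67 RPKM in WT and 4.94, 6.60 and 6.90 in KO. All 3 KO libraries lay below the 3 WT libraries, yet the difference of −0.36 (SE 0.14) did not pass (limma adjusted p = 0.53). Derl3, an ERAD component of secretory cells, held 0.165, 0.519 and 0.350 RPKM in WT and 0.0910, 0.109 and 0.0739 in KO, from at most 16 reads in a library.

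The WT untreated libraries also differed among themselves. Among the 23 XBP1/ATF6 members, WT untreated replicate 1 was the lowest of its group in 17 and WT untreated replicate 2 the highest in 15. Replicate 1 was also the lowest in all 4 sensors, where replicate 3 was the highest in all 4. The order of the libraries over all genes was not counted, so these orders need not be particular to the members. The summed level of 8 goblet cell markers was 8539 RPKM in replicate 1, 17040 in replicate 2 and 13890 in replicate 3. The markers did not share an order: Clca1 had 959.6, 6649 and 4072 RPKM in replicates 1, 2 and 3, Muc2 170.0, 351.2 and 1128, and Zg16 3084, 2633 and 2666. The part of goblet cells in these differences was not tested. Without replicate 2 the median of the XBP1/ATF6 branch was 0.11.

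Under DSS, 0 of 31 members passed limma's adjusted p, where 84 of 10990 genes did (0.764%). At an unadjusted p under 0.05 there were 3 members higher in KO (Dnajb9, Sdf2l1 and Derl2) and 2 lower (Ern2 and Ern1), against 18.7% of all genes. Every KO library lay above every WT library in 4 of 31 tested members, Dnajb9, Sdf2l1, Derl2 and Atf4 (11.1% of the genes tested did), and below in 1, Ern2 (11.9% did). The count above is near the background and the count below is under it. The untested Chac1 also lay above. The medians were 0.04 for the XBP1/ATF6 branch, −0.38 for the sensors and 0.10 for the ATF4 branch, beside −0.01 for all genes. After quantile normalisation the XBP1/ATF6 median was −0.11 beside −0.01 for all genes, and by voom on the recovered reads −0.0019 beside −0.06, so its sign depended on the scaling.

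**Figure D2:**
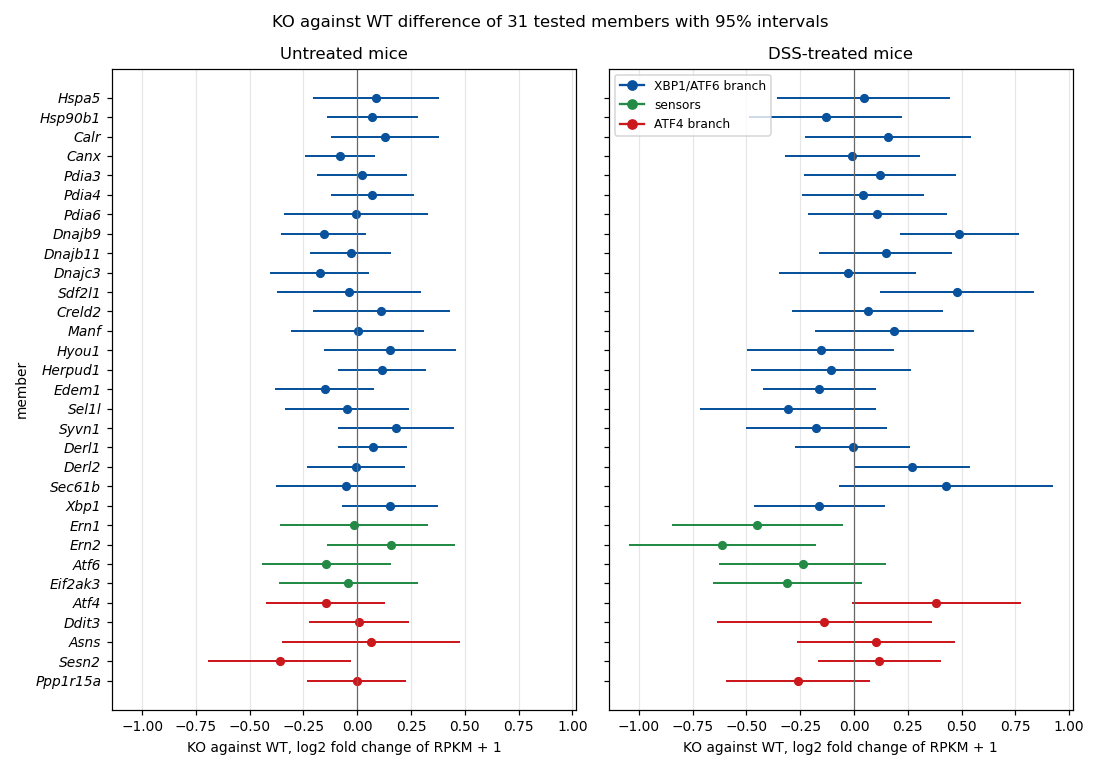
Log2 fold change of KO against WT on the log2(RPKM + 1) scale for 31 tested members (points) with 95% intervals (lines), in untreated mice (left) and under DSS (right), 3 libraries per group; colours mark the branches. In the left panel all intervals but that of Sesn2 cross 0, and in the right panel those of Dnajb9, Sdf2l1, Derl2, Ern1 and Ern2 do not, though none passed after adjustment.

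The ER chaperones themselves did not separate by genotype under DSS. Hspa5 had 234.1, 300.2 and 278.2 RPKM in WT and 311.7, 298.8 and 230.7 in KO libraries. The groups overlapped fully, and the log2 fold change was 0.05 (SE 0.18, limma adjusted p = 0.902) with an interval of the fold from 0.783 to 1.36. The other 4 chaperones (Hsp90b1, Calr, Canx and Hyou1) had log2 fold changes from −0.16 to 0.16, and the disulfide isomerases Pdia3, Pdia4 and Pdia6 from 0.04 to 0.12.

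The co-chaperones of BiP held the largest positive values. Dnajb9 (ERdj4), a J-domain protein that binds BiP and is a classic target of XBP1, had 29.1, 35.1 and 32.8 RPKM in WT DSS and 44.4, 44.4 and 48.3 in KO DSS libraries. All 3 KO libraries lay above the 3 WT libraries. The log2 fold change was 0.49 (SE 0.12, interval of the fold 1.16 to 1.70), which did not pass over all genes (limma adjusted p = 0.107). In the authors' deposited table the log2 fold change was 0.50 with a false discovery rate of 0.152. The gene (ENSMUSG00000014905.4) lies at chr12:44205559-44210326 on the minus strand in GENCODE vM21. Of the 75-base words of its transcripts, 2.72% also occur in the gene model Gm6568, which leaves the assignment of a small share of reads uncertain.

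Sdf2l1, which works with BiP and the J-domain protein Dnajb11, had 34.9, 33.8 and 47.8 RPKM in WT DSS and 59.0, 49.3 and 53.7 in KO DSS libraries. The groups did not overlap, by a small margin between WT DSS replicate 3 and KO DSS replicate 2. Its log2 fold change was 0.48 (SE 0.16, limma adjusted p = 0.178), and 0.27 once the trend with gene length was taken out. Dnajb11 (ERdj3), Dnajc3, Creld2 and Manf had log2 fold changes from −0.03 to 0.19. Manf is a small secreted protein that ER stress raises, and Creld2 is an isomerase-like protein of the ER. Creld2 had 28.7 ± 4.45 RPKM in WT and 30.0 ± 4.20 in KO (SD, n = 3 per group).

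Among the 6 tested ERAD genes, Derl2 alone had an unadjusted p under 0.05. Derl2, a membrane protein of the retrotranslocation complex, had 15.1, 14.2 and 17.0 RPKM in WT DSS and 18.7, 19.2 and 18.4 in KO DSS (log2 fold change 0.27, SE 0.12, limma adjusted p = 0.264). Its exons overlap those of Mis12 on the other strand, as those of Syvn1 do with Mrpl49 and those of Ppp1r15a with Tulp2, and the counting is not stated to use strand. Herpud1, which anchors ERAD complexes and carries ERSE-II and CARE above, had 82.8, 94.7 and 99.3 RPKM in WT and 94.3, 68.2 and 96.4 in KO. Its groups overlapped, at a log2 value of −0.11 (SE 0.16, limma adjusted p = 0.729). Syvn1 had 12.1, 14.0 and 10.8 RPKM in WT and 11.1, 11.96 and 9.30 in KO (log2 fold change −0.17, SE 0.14, limma adjusted p = 0.506). Sel1l, the partner of Syvn1, had a log2 value of −0.31 (SE 0.18), Edem1, which recognises misfolded glycoproteins, one of −0.16 and Derl1 one of −0.01.

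Xbp1 and the translocon subunit Sec61b, through which new proteins enter the ER, pointed apart. Xbp1 had 125.3, 134.4 and 153.3 RPKM in WT DSS and 128.6, 119.0 and 120.5 in KO DSS (log2 fold change −0.16, SE 0.13, limma adjusted p = 0.508). Sec61b had a log2 value of 0.43 (SE 0.22, limma adjusted p = 0.313), with the highest value of 182.3 RPKM in KO DSS replicate 1 and overlap between the groups. For Sec61b 5.86% of its 75-base words also occur in other gene models.

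All 4 sensors had negative values under DSS, and none passed. Ern2, the IRE1 paralogue of mucus-making epithelium, was the most abundant sensor in every group. The gene (ENSMUSG00000030866.8) lies at chr7:122169893-122186207 on the minus strand. It had 42.0, 44.4 and 33.6 RPKM in WT DSS and 33.3, 25.3 and 19.95 in KO DSS libraries. The 3 KO libraries lay below the 3 WT libraries, with WT DSS replicate 3 and KO DSS replicate 1 almost touching. The log2 fold change was −0.61 (SE 0.19, interval of the fold 0.486 to 0.881, limma adjusted p = 0.162). Without KO DSS replicate 1 it was −0.80 and passed (limma adjusted p = 0.0322), a fit that leaves 2 KO libraries. That fit called 368 of 10990 genes, against 84 in the main fit.

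Goblet cell markers stand beside Ern2 because both belong to mucus-making cells. Muc2, the main colonic mucin, had 608.4, 613.3 and 381.9 RPKM in WT DSS and 585.2, 415.1 and 313.5 in KO DSS. Its libraries stood in the order of Ern2 within both groups, whereas Zg16 ran in the reverse order, with 4554, 3430 and 6729 RPKM in WT DSS and 6693, 7800 and 8647 in KO DSS. The log2 fold change was −0.30 for Muc2, −0.52 for Fcgbp, −0.38 for Clca1 and −0.05 for Spdef. It was 0.70 for Zg16, 0.77 for Tff3, 0.89 for Spink4 and 0.16 for Agr2, and none of these markers passed. The summed level of 8 goblet cell markers ranged from 9472 to 16690 in WT DSS and from 15780 to 16770 in KO DSS, with 4 of 8 genes above 0 in log2 fold change and none called. The summed level of 8 absorptive colonocyte markers did not overlap between the groups, with 6532 to 12560 RPKM in WT DSS and 17330 to 19720 in KO DSS. Car1 made up most of this sum, with means of 4957 RPKM in WT DSS and 11710 in KO DSS. All 8 absorptive markers had positive log2 fold changes and none was called. Summed enteroendocrine markers ranged from 330.3 to 342.7 RPKM in WT DSS and from 389.9 to 567.5 in KO DSS, with 1 of 6 genes called (Sct). Deep crypt secretory markers ranged from 255.9 to 378.5 and from 343.7 to 844.6, with none called. Reg4 made up most of those sums, with means of 302.4 RPKM in WT DSS and 591.5 in KO DSS. Only 2 of the 4 deep crypt genes lay above 0 in log2 fold change, and Kit had −0.47 and Dll1 −0.31. Of the macrophage list C1qa was called, higher in KO, at summed levels of 21.5 to 25.7 RPKM in WT DSS and 27.2 to 40.4 in KO DSS. Cd14 made up most of these sums, with means of 21.0 in WT DSS and 22.6 in KO DSS. C1qa had means of 0.167 and 3.01 RPKM, and Lyz2, which was not called, of 1.68 and 4.95. The part of these cell types in the differences of Ern2, Dnajb9 or any other member was not tested.

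Ern1, the IRE1 form found in most cells, had 8.70, 9.86 and 7.21 RPKM in WT DSS and 4.77, 7.49 and 5.94 in KO DSS (log2 fold change −0.45, SE 0.17, limma adjusted p = 0.227). The groups overlapped by a single library on each side. Eif2ak3 had 12.6, 12.6 and 10.8 RPKM in WT and 8.26, 11.7 and 8.73 in KO (−0.31, SE 0.15, limma adjusted p = 0.2995). Atf6 had 13.8, 13.9 and 11.2 RPKM in WT and 8.49, 13.2 and 11.2 in KO (−0.24, SE 0.17, limma adjusted p = 0.443). In WT DSS the 4 sensors kept a common order, with replicate 2 the highest and replicate 3 the lowest for each. The order over all genes was not counted there either. In untreated mice the sensors had log2 fold changes from −0.14 to 0.16. Ern2 had 30.9, 39.3 and 44.1 RPKM in WT and 39.7, 41.4 and 45.7 in KO, and Ern1 had 7.42, 8.37 and 9.05 in WT and 7.61, 6.79 and 10.4 in KO. Atf6 had 11.03, 11.9 and 13.3 in WT and 9.47, 10.1 and 13.1 in KO, and Eif2ak3 had 8.29, 10.8 and 12.6 in WT and 10.1, 9.504 and 10.7 in KO. All 4 overlapped between the untreated groups.

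In the ATF4 branch, the factor itself stood above WT in all KO DSS libraries and its targets did not follow as a group. Atf4 had 78.9, 71.9 and 87.4 RPKM in WT DSS and 132.7, 88.7 and 94.2 in KO DSS, the highest of all 12 libraries being KO DSS replicate 1. The log2 fold change was 0.38 (SE 0.17, limma adjusted p = 0.272) and 0.21 at its lowest when a library was left out. Control of ATF4 is largely translational, which RNA levels do not show. Asns, asparagine synthetase, had 22.4, 21.5 and 30.9 RPKM in WT and 26.8, 23.7 and 29.3 in KO (0.10, SE 0.16, limma adjusted p = 0.734).

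Ddit3, which encodes the pro-apoptotic factor CHOP, had 9.22, 9.63 and 9.78 RPKM in WT DSS and 12.3, 5.75 and 8.78 in KO DSS. GENCODE vM21 holds 2 gene entries of that name that share exons, and which of them the row counts is uncertain. The KO libraries lay on both sides of the WT ones, at a log2 value of −0.14 (SE 0.22, limma adjusted p = 0.743). Ppp1r15a (GADD34), which leads the dephosphorylation of eIF2α, had 3.77, 3.999 and 4.29 RPKM in WT and 2.91, 2.76 and 3.98 in KO (−0.26, SE 0.15, limma adjusted p = 0.346). Sesn2 had 3.72, 4.45 and 3.79 RPKM in WT and 4.32, 4.38 and 4.51 in KO (0.12, SE 0.12, limma adjusted p = 0.604). These targets thus had values on either side of 0.

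Chac1, a glutathione-degrading enzyme, and Trib3, a pseudokinase, are sensitive targets of ATF4 and CHOP, and both were near the detection limit. Chac1 had 0.201, 0.263 and 0.475 RPKM in WT DSS and 0.755, 0.598 and 1.29 in KO DSS. Its groups did not overlap, but it was too low to be tested. Trib3 had 0.154, 0.0288 and 0.182 RPKM in WT DSS and 0.231, 0.153 and 0.287 in KO DSS. Derl3 had 0.141, 0.132 and 0.0463 RPKM in WT DSS and 0, 0.186 and 0.146 in KO DSS. In untreated mice Chac1 had 0.170, 0.528 and 0.629 RPKM in WT and 0.364, 0.326 and 0.696 in KO, and Trib3 had 0.151, 0.0851 and 0.138 in WT and 0.0795, 0.0535 and 0.218 in KO. The remaining ATF4 genes overlapped between the untreated groups. Atf4 had 83.7, 111.5 and 83.2 RPKM in WT and 84.8, 85.1 and 79.0 in KO, and Ddit3 had 12.02, 9.66 and 10.5 in WT and 10.7, 10.2 and 11.5 in KO. Asns had 15.3, 26.8 and 23.5 in WT and 21.6, 22.0 and 23.4 in KO, and Ppp1r15a had 4.68, 5.07 and 4.07 in WT and 4.595, 4.77 and 4.38 in KO. Their log2 fold changes ran from −0.15 for Atf4 to 0.06 for Asns.

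**Figure D3:**
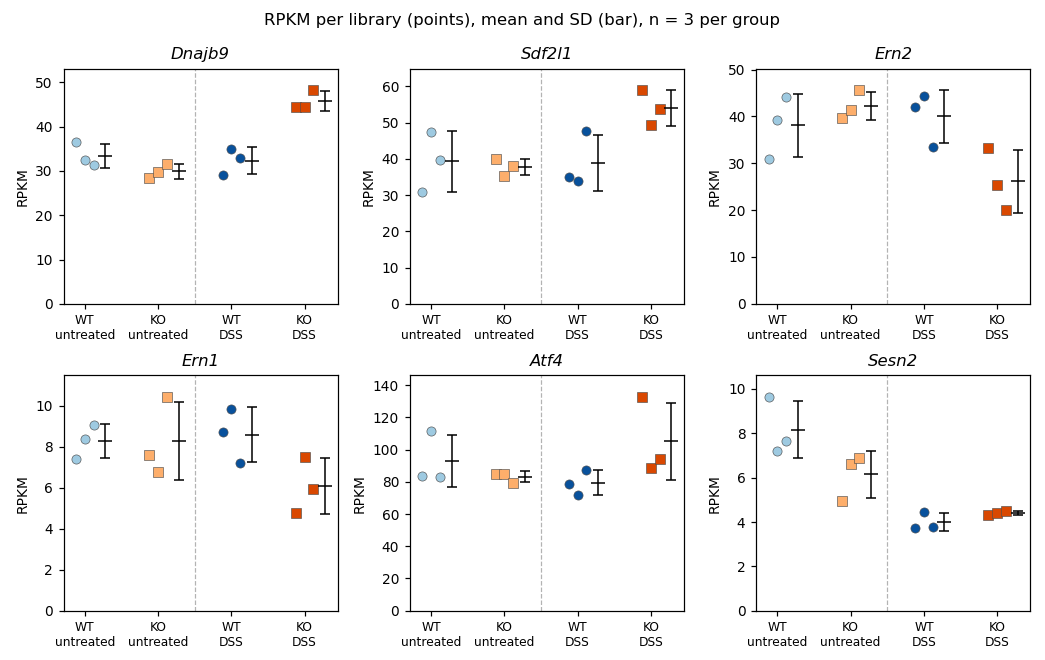
RPKM of Dnajb9, Sdf2l1, Ern2, Ern1, Atf4 and Sesn2 in each library (points), with the mean and SD (bars, n = 3 per group) and a dashed line between the 2 separately normalised tables. Dnajb9 stood at 44.4 to 48.3 in KO DSS and at or below 36.5 in every other library, and Ern2 had its lowest mean in KO DSS (26.2 RPKM).

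The difference between the genotypes under DSS was then set against that in untreated mice, in a fit over the 12 libraries that takes each difference within its own table. Of 31 members 1 passed, and 158 of 11306 genes did (1.4%). Dnajb9 rose in KO relative to WT under DSS compared with untreated mice, by 0.64 on the log2 scale (SE 0.14, interval of the fold 1.27 to 1.92, limma adjusted p = 0.041). In untreated mice its values were 36.5, 32.6 and 31.3 RPKM in WT and 28.4, 29.8 and 31.6 in KO, which gives −0.15 on the log2 scale (SE 0.08, limma adjusted p = 0.596). The call was lost with no filter on low values (adjusted p = 0.0716), with quantile normalisation (0.0575) and with voom (0.0677). It was also lost without any 1 of 10 libraries, the exceptions being WT DSS replicate 3 and KO DSS replicate 1, with adjusted p from 0.0278 to 0.126 and log2 values from 0.57 to 0.70. Calls over all 11306 genes moved as well: the 10 leave-out fits without the call held 1 to 144, against 158 in the main fit. Without WT DSS replicate 3 there were 300 and without KO DSS replicate 1 425. With no filter 4 of 18398 genes were called, with quantile normalisation 161 and with voom 192 of 11306. A batch that separates the tables cannot be told apart from DSS in this fit.

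Other members had interaction values whose adjusted p did not pass. Ern2 had −0.77 (SE 0.25, limma adjusted p = 0.128), Atf4 0.53 (SE 0.22, limma adjusted p = 0.218) and Sdf2l1 0.51 (SE 0.22, limma adjusted p = 0.237). Sesn2 had 0.48 (SE 0.19, limma adjusted p = 0.192). These and Dnajb9 were the 5 members with an unadjusted p under 0.05, against 19.0% of all genes. The medians were 0.01 for the XBP1/ATF6 branch, −0.35 for the sensors and 0.04 for the ATF4 branch, beside −0.004 for all genes.

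Level differences between DSS and untreated mice are given side by side and without a test, because each table was normalised on its own. Library numbers in the headers also come from separate series, so batch and DSS cannot be told apart. Every WT DSS library lay above every WT untreated library in 8 of 23 XBP1/ATF6 members, and 13.1% of the genes that passed the filter on low values did so. The 8 were the chaperones Hspa5, Hsp90b1, Calr, Canx and Hyou1, with Pdia3, Dnajc3 and Xbp1, so that all 5 chaperones were among them. Hspa5 had a ratio of mean RPKM of 1.51 in WT (179.0 ± 28.8 untreated, 270.8 ± 33.6 under DSS) and of 1.48 in KO (188.9 ± 15.1 and 280.4 ± 43.5). Hsp90b1 had a ratio of 1.43 in WT and 1.25 in KO, and Pdia3 of 1.29 and 1.38.

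In KO, 12 of 23 XBP1/ATF6 members had every DSS library above every untreated one, and 17.4% of the genes past the filter did so. Beside Hspa5, Hsp90b1, Calr, Canx, Pdia3 and Dnajc3, which stood in both counts, these were Dnajb9, Dnajb11, Sdf2l1, Manf, Derl2 and Sec61b. Dnajb9 had a ratio of 1.53 in KO and 0.967 in WT. Dnajc3, whose values under DSS were 32.4, 41.4 and 32.9 RPKM in WT and 32.6, 38.4 and 33.0 in KO, had ratios of 1.20 and 1.33. Derl2 had 15.3, 15.4 and 13.0 RPKM in WT untreated and 15.6, 13.3 and 14.6 in KO untreated libraries, and Sdf2l1 had 30.8, 47.6 and 39.6 in WT and 39.8, 35.4 and 38.1 in KO. Herpud1 had 95.8, 84.9 and 79.0 RPKM in WT untreated and 91.6, 97.8 and 91.6 in KO untreated libraries and did not belong to either count.

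Fewer members stood lower in DSS libraries. Sesn2 and the untested Derl3 lay below in WT (17.1% of the genes past the filter did), and Sesn2, Ppp1r15a, Syvn1 and Ern2 in KO (22.0% of them did). Sesn2 had a ratio of 0.488 in WT and 0.716 in KO, Syvn1 of 0.871 and 0.674 and Ern2 of 1.05 and 0.62. Atf4 and Asns lay above in KO, with ratios of 1.27 and 1.19, and not in WT. The median log2 ratio was 0.19 in WT and 0.32 in KO for the XBP1/ATF6 branch, −0.16 and −0.24 for the ATF4 branch, and 0.08 and −0.23 for the sensors, beside −0.01 and −0.02 for all genes. Summed absorptive colonocyte markers were 14010 to 20290 RPKM in WT untreated and 6532 to 12560 in WT DSS libraries, without overlap. In KO they overlapped, with 14990 to 18810 untreated and 17330 to 19720 under DSS. Car1 made up most of the sum, with means of 11480 RPKM in WT untreated and 4957 in WT DSS. Fabp2 (784.0 and 407.7), Krt20 (697.5 and 494.9) and Aqp8 (200.5 and 192.3) also had lower means in WT DSS. Slc26a3 (333.0 and 410.7) and Car4 (491.3 and 514.7) had higher ones. The part of absorptive colonocytes in these ratios was not tested.

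**Figure D4:**
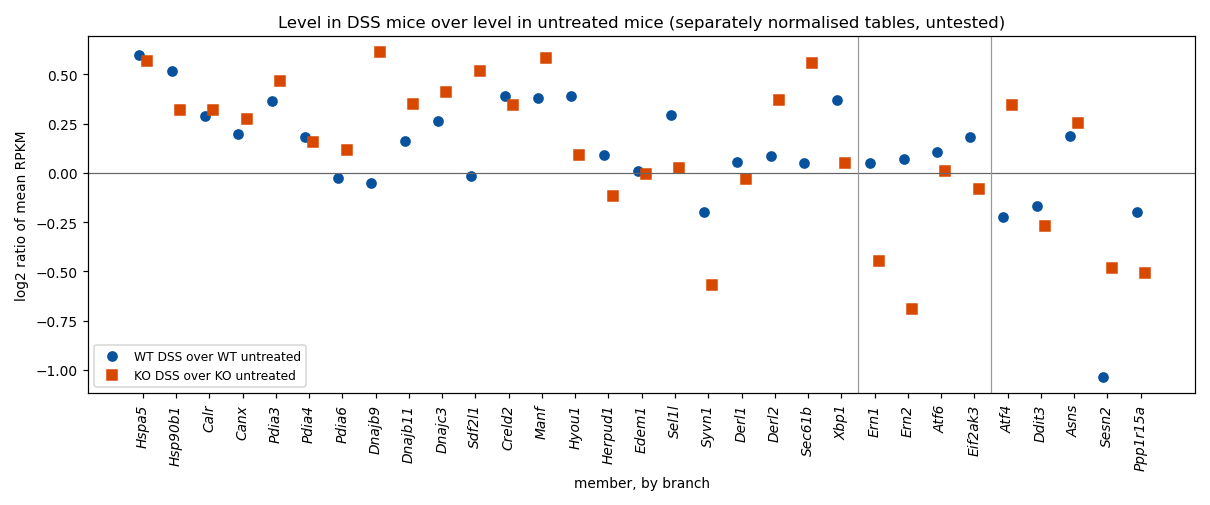
Log2 ratio of the mean RPKM in DSS mice over that in untreated mice for the 31 tested members, in WT (blue circles) and KO (orange squares), with lines separating the branches; the tables were normalised separately and no test was made. Hspa5 lies near the same height in both genotypes (ratios 1.51 and 1.48), while Dnajb9 (0.967 and 1.53) and Ern2 (1.05 and 0.62) lie apart.

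The KO against WT values under DSS followed gene length across the whole table. Across genes, which are not independent replicates, Spearman's rho between length and log2 fold change was −0.50 over 10990 genes and −0.60 over the 31 members, and in untreated mice −0.32 and −0.18. The 11 shortest members (552 to 2147 bases) had a median of 0.16 under DSS with 9 above 0. The 10 longest (3658 to 7468 bases) had a median of −0.17 with 1 above 0, which was Derl2. Dnajb9 (1866 bases) and Sdf2l1 (1109) are among the shorter members, and Ern1 (3979), Eif2ak3 (4840) and Atf6 (7468) among the longer ones. With the trend over all genes taken out, Dnajb9 had 0.38 under DSS (limma adjusted p = 0.114), Ern2, a gene of 2990 bases, −0.62 (limma adjusted p = 0.113), Ern1 −0.38, Atf4 0.26 and Atf6 −0.02.

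**Figure D5:**
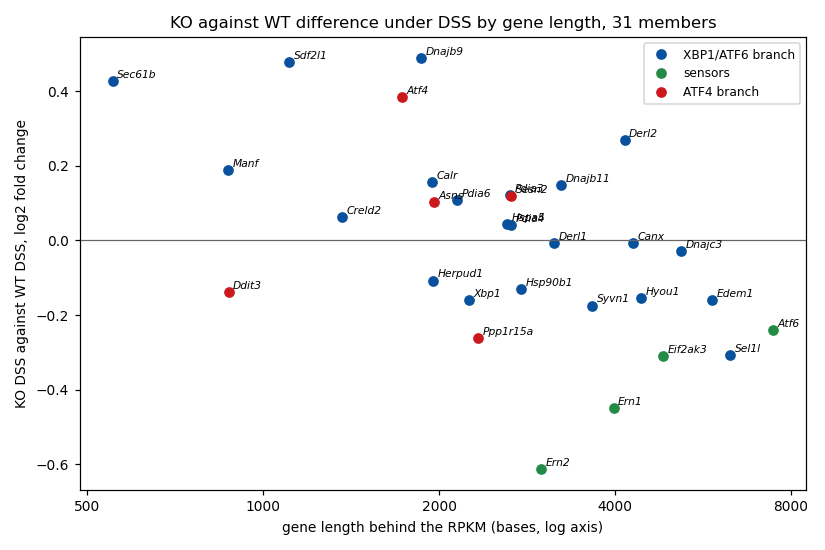
KO against WT log2 fold change under DSS (log2(RPKM + 1) scale) plotted against the gene length behind the RPKM (log axis) for 31 tested members, coloured by branch. Short members lie mostly above 0 and long members mostly below (9 of the 11 shortest and 1 of the 10 longest above 0), and Ern2 lies lowest at −0.61.

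Other genes of the pathway were given by 7 lists with 116 genes: further ER folding, ERAD, ER entry and traffic genes, UPR factors, ATF4 targets, tRNA synthetases and the eIF2 kinases with their phosphatase. None of 110 tested genes was called in untreated mice, 0 of 109 under DSS and 0 of 110 in the interaction. At an unadjusted p under 0.05, 4 were higher and 7 lower in untreated KO (9.09% of all genes tested passed it), 7 higher and 10 lower under DSS (18.7%), and 11 and 15 in the interaction (19.0%). Among the membrane-bound factors, Creb3l1 had −0.84 (SE 0.21, limma adjusted p = 0.11) and Creb3l3 0.87 (SE 0.23, limma adjusted p = 0.119) under DSS. Their levels were far apart. Creb3l1 had means of 135.1 RPKM in WT DSS and 74.3 in KO DSS, and Creb3l3, near the filter on low values, of 0.70 and 2.18. Atf6b, the paralogue of Atf6, had −0.51 in the interaction (SE 0.13, limma adjusted p = 0.0758).

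Further targets of ATF4 pointed both ways under DSS. Cth had 0.40 and Mthfd2 0.40, enzymes of cysteine and of folate metabolism, while Gdf15, a stress cytokine, had −0.45 (limma adjusted p = 0.208, 0.244 and 0.154). The tRNA synthetases Yars and Eprs had −0.43 and −0.59 (limma adjusted p = 0.115 and 0.153), with 7 of 12 tested synthetases above 0. The 9 mitochondrial unfolded protein genes and 8 tested cytosolic heat shock genes held 0 calls in each comparison, with medians of −0.01 and 0.16 under DSS.

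Across the authors' deposited comparisons, 0 of 34 members had a false discovery rate under 0.05 in either comparison. A p-value under 0.05 was held by 2 of 34 in untreated mice and by 7 of 34 under DSS. Over all 23790 genes, of which 18398 had any reads, 2 and 206 had such a false discovery rate and 1217 and 2837 such a p-value.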

How the data were processed

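RNA-seq libraries were stranded and polyA-enriched, made with the KAPA mRNA HyperPrep kit per the labels' protocols. TopHat2 2.1.1 and edgeR 3.30.3 with the builds GRCm38 and mm10 are named in the submitters' processing notes, and the read counter is not given there. The authors deposited 2 tables (untreated and DSS) with an RPKM per library, already scaled by library factors of 0.956 to 1.03, per the file headers and the values. Beside it the authors deposited a log2 fold change, an F score, a p-value and a false discovery rate for each gene. Of 23794 gene lines, 4 with repeated date-like names were left out. Whole reads were recovered from the RPKM steps in 100% of 23790 genes (tolerance 0.02 reads), which gives depth and gene length. Of these genes 18398 had any reads, and those without reads count as whole. The step of each gene was sought so that its values came out whole, so the share is no check of the reads. Voom on the recovered reads called 2, 71 and 192 genes in the untreated, DSS and interaction comparisons.

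The plan allowed for counts or RPKM, and the RPKM test was used. It fits log2(RPKM + 1) by limma 3.58.1 (R 4.3.3) with a trend of the variance on the mean. Genes entered if 3 or more of the compared libraries reached an RPKM of 1. P-values were adjusted by Benjamini-Hochberg over all genes tested and called under 0.05. The scale understates the change of low genes. Each genotype comparison used the 6 libraries of its own table, and the interaction used 12. Fits were tested on simulated data. Alternatives were the pseudocount, no filter, quantile normalisation, voom, the length trend taken out, a spread shared over 12 libraries, the replicate block and leaving out each library; plain read totals were added after seeing the data.

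The members, the pathway and marker lists and the tests were chosen with earlier results of these data known. Every library's value is given for 20 members set by rule. These are the sensors, the ATF4 branch, Hspa5, Dnajb9, Sdf2l1, Herpud1, Xbp1, Derl3, any called member and the 5 smallest p in each comparison. The others are given by range or summary values. Outside the members, up to 3 genes per list with the smallest p are given. Marker lists covered goblet, deep crypt secretory, plasma, absorptive, enteroendocrine, epithelial and immune cells and fibroblasts. Promoters are from RefSeq on GRCm38.p6 and overlaps from GENCODE vM21.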

Additional observations from a re-analysis of the deposited data

Results flagged for a closer look

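Dnajb9 is flagged because its KO against WT difference was not the same under DSS as in untreated mice. The interaction was 0.6443 on the log2 scale (limma adjusted p = 0.041), from 0.49 under DSS and −0.15 in untreated mice. All 3 KO DSS libraries (44.4 to 48.3 RPKM) lay above the 3 WT DSS libraries. The call was lost when any 1 of 10 libraries was left out, and with no filter on low values, quantile normalisation or voom. Those 10 leave-out fits called 1 to 144 of 11306 genes, against 158 in the main fit. DSS and the batch of the tables cannot be told apart.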

How the results depend on the processing

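In untreated mice 0 members were called under any setting run. Under DSS 1 member was called in place of 0 with the spread shared over 12 libraries (Dnajb9, adjusted p = 0.0172) and 1 with the replicate block (Ern2, adjusted p = 0.0457). Calls over all 10990 genes rose as well, to 623 and 398 in these settings, against 84 in the main fit. Deviations of same-numbered DSS libraries from their group means correlated at −0.114, 0.359 and 0.133, and not every library correlated best with its own number. With 3 libraries per group these values cannot decide whether the numbers pair the libraries. Leaving out a library gave 0 to 1 called members under DSS and 0 to 2 in the interaction, where Ern2 (−0.95, adjusted p = 0.0333) joined Dnajb9 without KO DSS replicate 1. Over all genes the leave-out fits called 1 to 368 of 10990 under DSS and 1 to 425 of 11306 in the interaction. The most in each came without KO DSS replicate 1. The interaction had 0 called members with no filter (Dnajb9 adjusted p = 0.0716), 0 with quantile normalisation (0.0575) and 0 with voom (0.0677), and kept Dnajb9 with a pseudocount of 0.1 (0.0407) and with the length trend taken out (0.0413). In that order these fits called 4 of 18398 genes, then 161, 192, 168 and 547 of 11306.

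Leaving out a library moved the untreated XBP1/ATF6 median from −0.0405 to 0.106 and the untreated ATF4 median from −0.162 (without WT untreated replicate 1) to −0.00483, with −0.0729 without WT untreated replicate 3. The XBP1/ATF6 median under DSS was −0.108 after quantile normalisation. Of 51 values of single members 16 changed sign under at least 1 setting, 0 of them a called value. In 4 the shift reached 1 SE: Hspa5 under DSS (−0.138, quantile), and, when a library was left out, Sdf2l1 untreated (−0.198 to 0.108), Asns untreated (−0.162 to 0.223) and Ddit3 under DSS (−0.376 to 0.116); the cause was not tested. No scaling moved the median of all genes by over 0.1. With plain read totals 10 XBP1/ATF6 members lay above in WT DSS libraries and 12 in KO, and leaving out a library gave 8 to 12 and 12 to 15. Depth limits Derl3, Trib3 and Chac1, and 3 libraries per group limit every call.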
